A study of Mus musculus with 7 samples.

Results

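The 37 genes described here are Hox genes, read in osteocyte-enriched long bone of adult male mice. They were taken as every gene whose symbol is Hoxa, Hoxb, Hoxc or Hoxd followed by a number and that has a probe set naming it alone, out of 19938 genes named in this way on the array. Each of the 37 has a single such probe set. Other Hox genes were not analysed here. The members fall into 10 genes of the HoxA cluster on chromosome 6, 9 of HoxB on chromosome 11, 9 of HoxC on chromosome 15 and 9 of HoxD on chromosome 2.

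Bone came from 4 control mice, labelled wildtype, and 3 mice labelled DMP1 cre Mbtps1 knockout, all male and 39 to 41 weeks old. Mbtps1 encodes site-1 protease, which cleaves membrane-bound transcription factors such as SREBP and ATF6. The Dmp1 promoter drives Cre mainly in osteocytes and late osteoblasts, so most other cells of the bone piece should keep the gene. The controls are littermates by the study's title, and whether they carry Cre or floxed alleles is not stated in the sources used here. Both groups had marrow removed and went through 4 rounds of collagenase digestion and EDTA extraction. Which long bones were used, and from which limb, is not given in the sources used here.

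Hox genes encode transcription factors with a homeodomain that give each body segment its identity. They lie in 4 clusters, and genes of the same number in different clusters are paralogs, numbered from 1 at the end used in the head and front of the trunk to 13 at the end used in the tail and the tips of the limbs. In the developing limb the paralogs from 9 upward of HoxA and HoxD pattern the segment nearest the body, the next segment and the digits in turn. Bone-forming cells of the adult skeleton are known to keep part of that code. Hox genes of lower number, and Hoxa9 and Hoxb4 among others, also act in blood stem and progenitor cells, which bone pieces can hold.

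The arrays gave probe set intensities, analysed as log2(intensity + 16). Probe sets bind with different strength, so a level is set here against fixed marks and not against another gene as an amount of RNA. The first mark is a low-signal filter at the 30th percentile of mean log2 signal over all genes, at an intensity of 69.5. The second is the 95th percentile of 1015 olfactory receptor genes, which bone is not known to use, at an intensity of 119.8. Of these receptor genes 27% passed the filter, so passing it does not show expression.

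Most Hox genes gave low signal in this bone. Only 16 of the 37 passed the low-signal filter, and 5 of them, Hoxb3, Hoxa4, Hoxa7, Hoxd3 and Hoxd13, lay above the olfactory receptor mark on average over the 7 arrays. Hoxd13 did so only through the knockouts, with a control mean of 116 under the mark and a knockout mean of 161 above it. HoxA had 7 of 10 members past the filter, HoxB 5 of 9, HoxD 3 of 9 and HoxC 1 of 9. The median over members of the mean intensity was 86.3 in HoxA, 70.3 in HoxB, 60.9 in HoxD and 46.1 in HoxC. These medians are over different probe sets and do not rank the clusters by amount of RNA. Members near the filter were close together, with Hoxb9 (70.3) and Hoxb7 (70.5) just inside it and Hoxc5 (70.3) and Hoxc9 (72.4) just outside, since the filter uses the mean of log2 values.

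**Figure D1:**
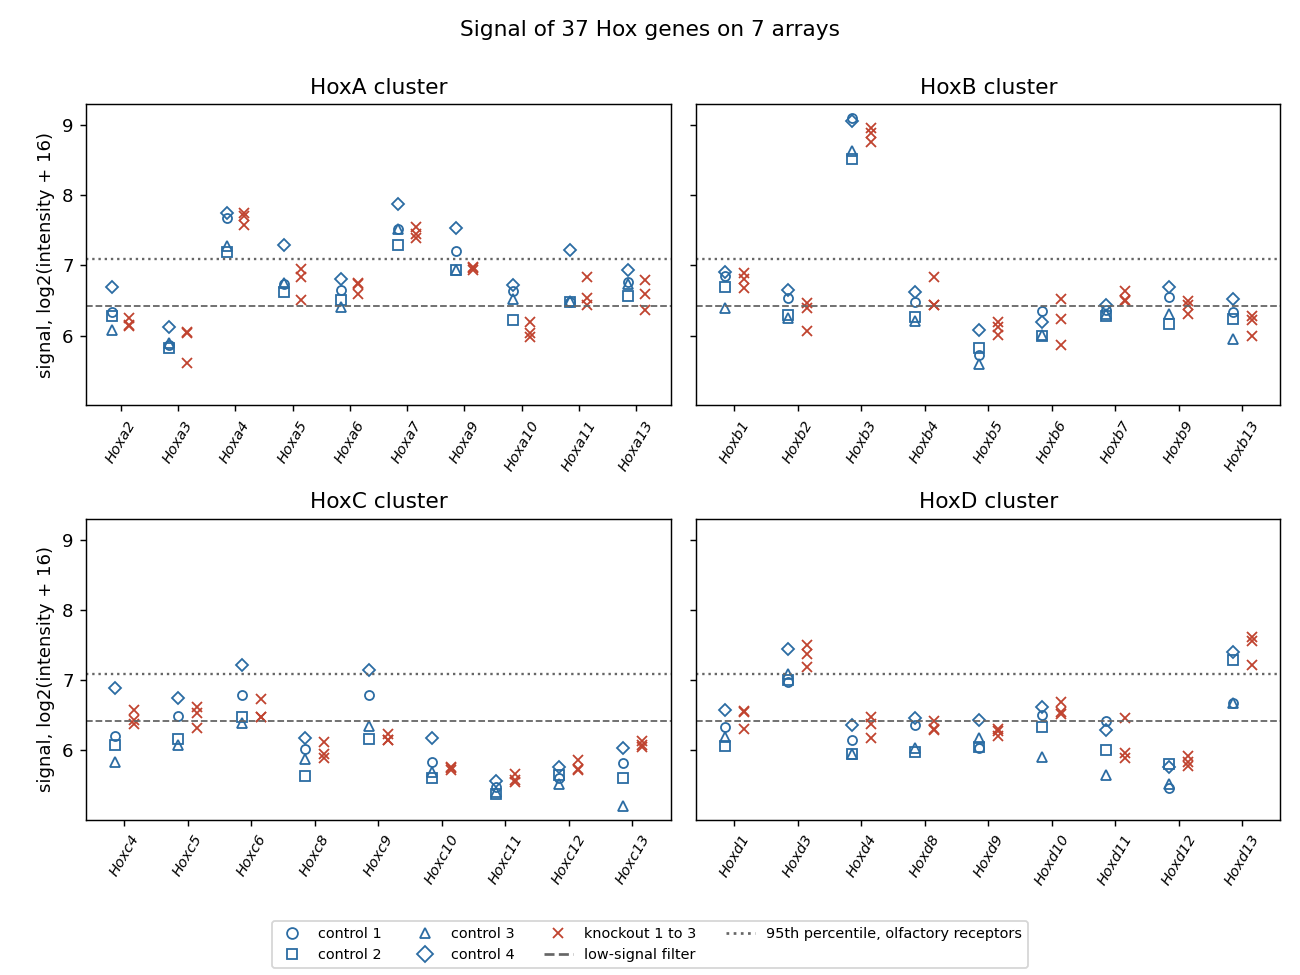
Signal of each Hox gene on each array, as log2(intensity + 16), by cluster, with controls as open blue symbols and knockouts as red crosses. The dashed line is the low-signal filter and the dotted line the 95th percentile of olfactory receptor genes. Hoxb3, Hoxa4 and Hoxa7 lie above both on all 7 arrays, and 21 of 37 genes have means under the filter.

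Paralog number did not order the signal evenly. Of the 11 members numbered 1 to 4, 5 passed the filter and 3 lay above the olfactory mark. Of the 10 numbered 5 to 8, 5 passed and 1 lay above that mark, and of the 16 numbered 9 to 13, 6 passed and 1 lay above it. The last of these, Hoxd13, lay above the mark only through the knockouts. Both members of group 7 passed, neither member of groups 2, 8 and 12 did, and in group 13 Hoxa13 and Hoxd13 passed while Hoxb13 and Hoxc13 did not. Paralog group 11, known for patterning the forearm and lower leg, was represented above the filter by Hoxa11 only, with Hoxd11 at a mean intensity of 53.3 and Hoxc11 at 29.6, the lowest of the 37.

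Among the low-numbered genes, Hoxb3 and Hoxa4 lay above both marks on all 7 arrays, as did Hoxa7 further along. Hoxb3 read 533, 352, 382 and 516 in controls 1 to 4 and 417, 460.1 and 483 in knockouts 1 to 3. All knockouts lay inside the control range, which spread 1.52-fold. The means were 446 ± 92.4 in controls (SD, n = 4) and 453 ± 33.5 in knockouts (SD, n = 3), a log2 fold change of 0.04 with a standard error (SE) of 0.17. This fold change was below 0 after median centring (-0.017), after centring on olfactory receptor genes (-0.10) and without control 2 (-0.060), control 3 (-0.022) or knockout 3 (-0.0029).

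Hoxa4 read 189, 131, 139 and 198 in controls 1 to 4 and 193, 174 and 198 in knockouts 1 to 3. Controls 1 and 4 lay with the knockouts, and controls 2 and 3 lay below all of them. Hoxd3 read 109, 111, 119 and 158 in the controls and 165, 149 and 129.9 in the knockouts. Only control 4 overlapped the knockouts in Hoxd3. The log2 fold changes were 0.20 (SE 0.15) for Hoxa4 and 0.23 (SE 0.14) for Hoxd3, and neither passed the limma test (adjusted p = 0.834 and 0.811). Without control 4 both reached an unadjusted limma p under 0.05. Their log2 fold changes were then 0.29 for Hoxa4 (adjusted p = 0.375) and 0.34 for Hoxd3 (adjusted p = 0.238). In that run 1826 of 13956 filtered genes were at that p, 1333 of them higher in knockout. Olfactory centring gave 0.056 for Hoxa4 and 0.089 for Hoxd3, and quantile normalization 0.14 and 0.17, each at an unadjusted limma p above 0.05. Hoxb1, which marks a hindbrain segment in the embryo, read 99.1, 87.6, 67.9 and 104 in the controls and 103, 86.1 and 95.4 in the knockouts, so the groups overlapped. The remaining members numbered 1 to 4 had mean intensities between 44.6 (Hoxa3) and 73.3 (Hoxb4).

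In the middle of the clusters, Hoxa7 read 168, 141, 167 and 219 in controls 1 to 4 and 172, 159 and 151 in knockouts 1 to 3. Hoxa5 read 91.0, 82.1, 92.1 and 140.3 in the controls and 98.1, 107 and 75.1 in the knockouts. In both genes control 4 stood above every other array. The remaining controls lay within the knockout range, except Hoxa7 in control 2, which was below it. Hoxa6 read 84.0, 75.1, 68.5 and 95.6 in the controls and 90.9, 80.3 and 91.9 in the knockouts, also with control 4 highest. Hoxc6, the only HoxC member past the filter, read 94.1, 72.3, 67.7 and 133 in the controls against 72.5, 89.9 and 72.7 in the knockouts. Its controls spread 1.96-fold, with control 4 again at the top.

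Hoxb7 was the only member past the filter whose groups did not overlap. It read 66.1, 61.9, 63.2 and 70.8 in controls 1 to 4 and 83.4, 74.5 and 73.7 in knockouts 1 to 3. Every knockout lay above every control, by a narrow margin between control 4 and knockout 3. The log2 fold change was 0.19 (SE 0.12; limma p = 0.144, adjusted p = 0.818; two-sided exact permutation p = 0.0571). Its mean over the 7 arrays lay just above the filter, but its control mean of 65.5 did not and its knockout mean of 77.2 did, so that it passed only through the group where it is higher. Hoxb4 (68.6 and 79.5) and Hoxd10 (66.0 and 79.8) passed in the same way, and Hoxb9 only through the controls (71.0 and 69.5). In the fit without a filter, which does not select on signal, Hoxb7 had an adjusted limma p of 0.857. Over all 13956 filtered genes 7.98% had groups that did not overlap (knockout higher in 5.22%, lower in 2.76%), and nothing is read from the count of Hox genes that passed the filter.

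Among the posterior genes, which pattern the limb, Hoxd13 was the only member past the filter at an unadjusted p under 0.05. Hoxd13, the digit-end gene of HoxD, read 85.7, 139.6, 85.4 and 152 in controls 1 to 4 and 132, 179 and 172 in knockouts 1 to 3. The controls formed a low pair (1 and 3) and a high pair (2 and 4), and knockout 1 lay below the high pair. The means were 116 ± 35.3 in controls (SD, n = 4) and 161 ± 25.3 in knockouts (SD, n = 3). The knockouts were 1.37-fold higher, a log2 fold change of 0.45 (SE 0.19; limma p = 0.0343, adjusted p = 0.756; two-sided exact permutation p = 0.171). This size stands against a background of 6.48% of filtered genes at an unadjusted p under 0.05, 3.78% higher and 2.71% lower. The unadjusted p was above 0.05 without control 1 (log2 fold change 0.34), control 3 (0.34), knockout 2 (0.38) or knockout 3 (0.41), after quantile normalization (0.39) and after centring on olfactory receptor genes (0.31). The unadjusted limma p was smallest with the replicate number as a block (log2 fold change 0.59, limma adjusted p = 0.0634). Next came the runs without control 4 (0.59, limma adjusted p = 0.172) and with array weights (0.50, limma adjusted p = 0.19). In these runs 1660, 1826 and 1876 of 13956 filtered genes were at an unadjusted p under 0.05. The fold change of Hoxd13 stayed above 0 in every alternative run.

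Hoxa9, a gene of both limb and blood progenitors, read 132, 106, 107 and 169 in controls 1 to 4 and 109, 107 and 110.3 in knockouts 1 to 3. The knockouts and controls 2 and 3 lay close together, with controls 1 and 4 above. Hoxd10 read 74.3, 64.4, 43.7 and 81.6 in the controls and 75.3, 76.9 and 87.2 in the knockouts, and controls and knockouts overlapped through control 4. Its control mean was under the filter, as given above. The log2 fold changes were -0.19 (SE 0.15, limma adjusted p = 0.835) for Hoxa9 and 0.25 (SE 0.17, limma adjusted p = 0.826) for Hoxd10. Hoxa13 read 92.7, 78.9, 90.2 and 107 in the controls and 66.5, 94.3 and 80.3 in the knockouts. Its groups overlapped, and the knockouts were more spread than controls 1 to 3.

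Hoxa11, which patterns the lower leg and forearm, was even in 3 controls and far higher in the fourth. It read 73.3, 73.4 and 74.2 in controls 1 to 3 and 133 in control 4, with 76.6, 70.4 and 98.0 in knockouts 1 to 3. The log2 fold change was -0.07 (SE 0.19), and without control 4 it was 0.11.

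Of the 21 members under the filter, 3 are described further, chosen after their values were seen because they had the lowest unadjusted p. They were tested in a limma fit of all 19938 genes without a filter. Hoxa10 patterns the limb segment nearest the body. It read 83.1, 58.7, 76.1 and 89.0 in controls 1 to 4 and 47.0, 49.7 and 57.2 in knockouts 1 to 3. All knockouts lay below all controls, the closest being knockout 3 and control 2. The means were 76.7 ± 13.1 in controls (SD, n = 4) and 51.3 ± 5.27 in knockouts (SD, n = 3), so that controls were 1.37-fold higher on the log2 scale with its offset. The log2 fold change was -0.45 (SE 0.15; limma p = 0.00832, adjusted p = 0.846; two-sided exact permutation p = 0.0571). In each of the 18 alternatives the unadjusted limma p of Hoxa10 stayed under 0.05, with log2 fold changes from -0.60 to -0.28 and adjusted p of 0.235 or more.

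Hoxc13, the posterior end of HoxC and a hair and nail gene, read 40.0, 32.3, 20.7 and 49.0 in the controls and 53.7, 50.02 and 51.3 in the knockouts. All knockouts lay above all controls, with control 4 just below knockout 2. Its log2 fold change was 0.43 (SE 0.18; limma p = 0.0351, adjusted p = 0.857; two-sided exact permutation p = 0.0571), and the unadjusted p was above 0.05 without control 2, control 3 or any single knockout and after centring on olfactory receptor genes. Hoxc9 read 93.6, 55.4, 65.0 and 125 in the controls and 54.4, 59.1 and 54.3 in the knockouts. The knockouts lay together at the lower end of the controls, which spread 2.26-fold (log2 fold change -0.44, SE 0.20). Neither test called it (two-sided exact permutation p = 0.200, limma adjusted p = 0.857). The unadjusted limma p of Hoxc9 was under 0.05 in 7 of 18 alternatives, among them quantile normalization, median centring, olfactory centring and leaving out control 2 or control 3, and above 0.05 without control 4 (log2 fold change -0.26). All 3 of these genes had mean intensities inside the range of olfactory receptor genes.

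**Figure D2:**
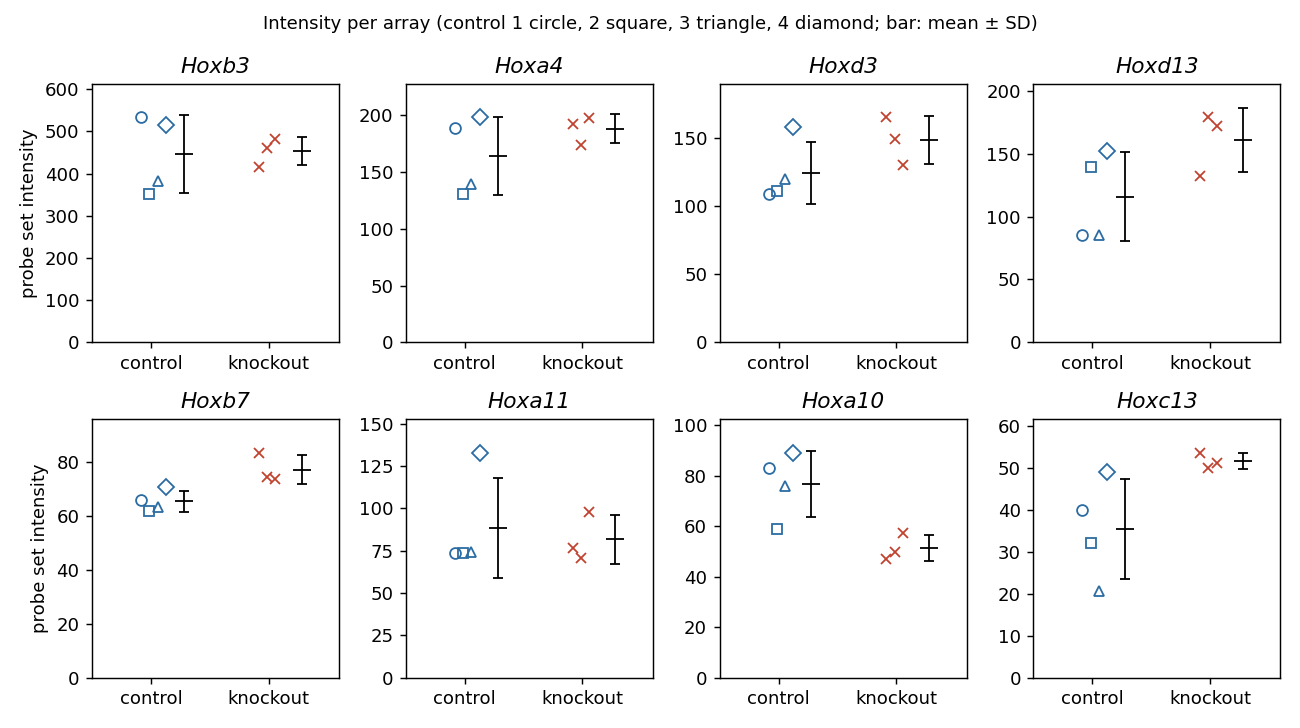
Probe set intensity (linear axis from 0) of 8 Hox genes on each array, controls in blue with a symbol per animal and knockouts as red crosses, with the mean ± SD of each group beside them. Hoxb7, Hoxa10 and Hoxc13 have groups that do not overlap, and in Hoxa11 control 4 reads 133 while the other 3 controls read 73.3 to 74.2.

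Counted over all 37 members without a filter, 3 were at an unadjusted limma p under 0.05 (8.11%), 2 higher (Hoxc13 and Hoxd13) and 1 lower (Hoxa10) in knockout bone. The share over all 19938 genes in that fit was 5.73%, 3.67% higher and 2.06% lower. Groups did not overlap in 3 members, 2 higher (Hoxb7 and Hoxc13) and 1 lower (Hoxa10), against 7.62% of all genes (5.4% higher and 2.22% lower). After Benjamini-Hochberg adjustment in limma the count at 0.05 was 0 for Hox genes and 0% for all genes, with the filter and without it. Among Hox genes the smallest adjusted p was 0.756. The median log2 fold change was 0.08 over the 37 members and 0.08 over all genes. With control 4 left out, 8 of the 37 were at an unadjusted p under 0.05, 7 of them higher, and the share of all genes was 13.3%. With control 3 left out, 2 were at that p (Hoxa10 and Hoxc9), both lower, and the share of all genes was 8.8%. After centring on olfactory receptor genes the same 2 were, both lower, and the share was 2.78%.

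The clusters differed in the sign of their members' fold changes. HoxD had 9 of 9 members above 0 (median 0.20), HoxB 6 of 9 (median 0.07), HoxC 6 of 9 (median 0.12) and HoxA 2 of 10 (median -0.09), where 69.3% of all genes were above 0. After quantile normalization HoxD had 8 of 9 members above 0 and HoxA 2 of 10, with 59.8% of all genes above 0. After centring on olfactory receptor genes these were 6 of 9 and 1 of 10, with 32.8% of all genes above 0. Leaving out control 4 turned the HoxA count to 6 of 10 (median 0.03), whereas HoxD stayed at 9 of 9 (median 0.27). In that setting 64.8% of all genes were above 0 (median 0.07). Neighbouring Hox genes share regulatory sequence and can share transcripts, so members of a cluster are not independent, and the difference between clusters was not tested.

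**Figure D3:**
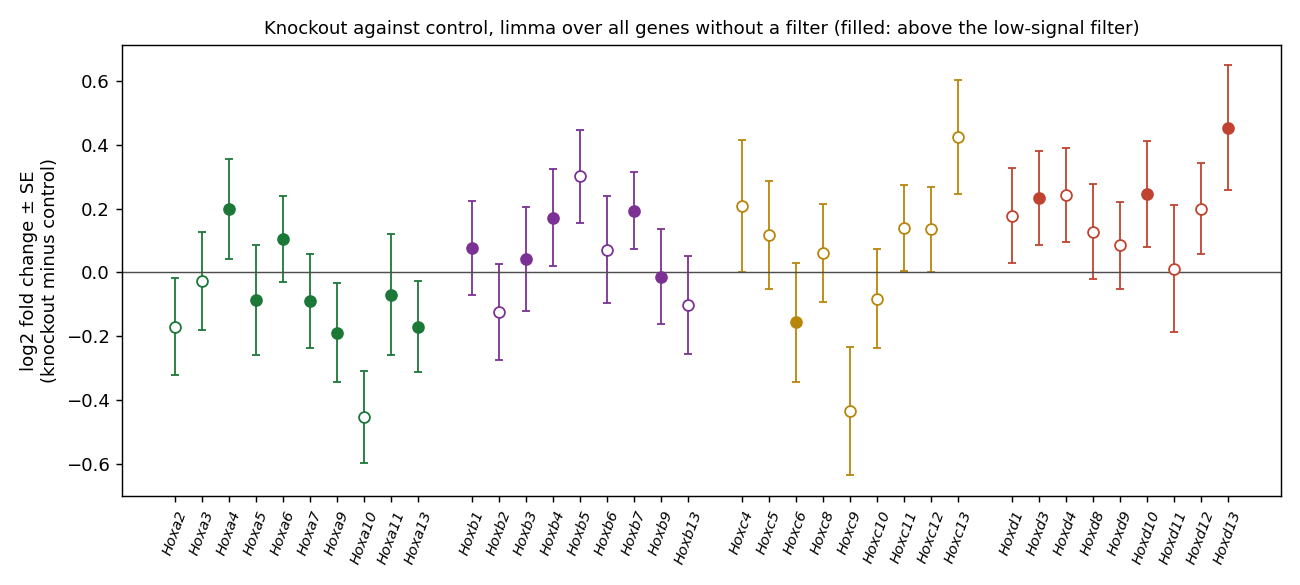
Log2 fold change of each Hox gene (knockout minus control) with its SE, from the limma fit of all genes without a filter, ordered by cluster (HoxA green, HoxB purple, HoxC ochre, HoxD red) and paralog number. Filled symbols passed the low-signal filter. All 9 HoxD genes lie above 0 and 8 of 10 HoxA genes lie below it. Intervals of 1 SE to either side reach 0 in some genes and not in others.

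Control 4 set much of the spread among controls. It was the highest of the 7 arrays in 23 of 37 Hox genes, and in 10 of 10 HoxA genes, 4 of 9 HoxB, 6 of 9 HoxC and 3 of 9 HoxD genes. The same held for 20.8% of filtered genes, 27.4% of all genes and 48.1% of olfactory receptor genes. After quantile normalization control 4 was highest in 15 of the 37 and in 6 of the 10 HoxA genes, and after centring on olfactory receptor genes in 0. Control 3 was the lowest array in 14 Hox genes (37.8%), against 35.7% of all genes and 87.9% of olfactory receptor genes, and control 2 was lowest in 12.

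Low signal as a whole moved between arrays in the same way. The first quartile of intensity over all probe sets was 61.0 on control 4, 40.5 on control 3, and 52.8 to 58.2 on the knockouts. Mean log2 signal of the 37 Hox genes was 6.45 ± 0.21 in controls (6.26 to 6.73; SD, n = 4) and 6.50 ± 0.03 in knockouts (6.47 to 6.53; SD, n = 3). Mean log2 signal of the olfactory receptor genes was 5.997 ± 0.358 in controls and 6.128 ± 0.159 in knockouts. The Hox mean lay above the olfactory mean by 0.73 on control 3, by 0.32 to 0.37 on the other controls and by 0.22 to 0.46 on the knockouts. How much of any Hox difference comes with this shift was not tested.

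**Figure D4:**
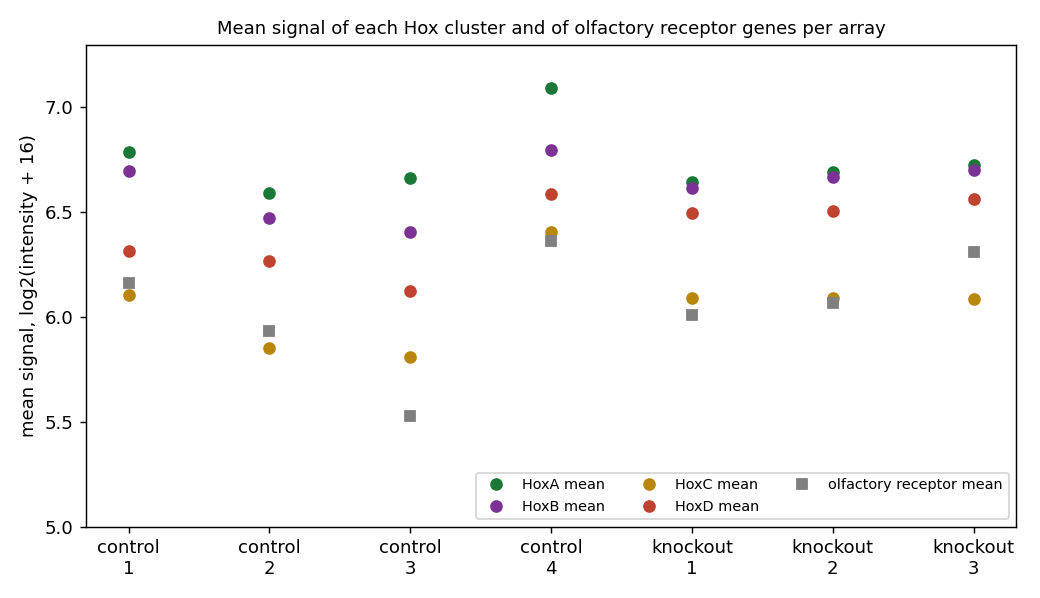
Mean log2(intensity + 16) of the members of each Hox cluster and of olfactory receptor genes on each of the 7 arrays. HoxA runs from 6.59 to 7.09 in controls and from 6.64 to 6.73 in knockouts, HoxD from 6.12 to 6.59 and from 6.49 to 6.56, and control 4 is highest in all 4 clusters.

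Signal of cell type markers differed between arrays too. In bulk bone, fewer cells of a type and less RNA per cell cannot be told apart. All 13 osteocyte markers, among them Dmp1, Mepe, Phex and Sost, passed the filter, with list means of 8.48 to 9.42 (log2) in controls and 7.99 to 8.27 in knockouts. Of the 13, 8 were lower and 1 higher (Tnfsf11, 0.30) at an unadjusted limma p under 0.05, and 10 had fold changes below 0. None passed after adjustment. Over all filtered genes 3.78% were higher and 2.71% lower at that p, and 67.7% had fold changes above 0. Control 4, highest in the HoxA genes, also had the highest osteocyte mean of all 7 arrays (9.42). It had the lowest list means of the arrays in erythroid (9.30), B cell (7.68) and blood stem and progenitor markers (7.29). Its means of megakaryocyte (9.32), neutrophil (11.3) and marrow stroma markers (7.92) were also the lowest. Its muscle mean (7.18) was the highest of the arrays, and its osteoblast mean (9.22) lay inside the range of the controls. The 6 erythroid markers measured ranged from 9.30 to 10.3 in controls and 10.1 to 10.2 in knockouts, the 10 B cell markers (2 higher at that p) from 7.68 to 8.69 and 8.51 to 8.61, and the 9 stem and progenitor markers from 7.29 to 7.47 and 7.36 to 7.53. The 8 osteoblast markers measured ranged from 8.70 to 9.48 and 8.52 to 8.96, all 8 with fold changes below 0 and 4 of them lower at that p. The 8 marrow stroma markers ranged from 7.92 to 8.41 and 7.93 to 8.10, with 2 lower at that p, Foxc1 (-0.43) and Pdgfra (-0.35). Chondrocyte markers (6 measured, 1 lower at that p) ranged from 6.97 to 7.74 and 7.13 to 7.82, adipocyte markers (5, 2 lower) from 8.18 to 9.14 and 8.16 to 8.47, endothelial markers (6, 2 lower) from 7.76 to 8.08 and 7.70 to 7.74, and megakaryocyte markers (6, none at that p) from 9.32 to 10.2 and 9.87 to 10.3. The 10 neutrophil markers ranged from 11.3 to 11.6 and 11.4 to 11.6, with 2 lower at that p. Of the 12 muscle markers 9 passed the filter, with list means of 6.73 to 7.18 in controls and 6.96 to 7.02 in knockouts, and Myh1, Actn3 and Pvalb were under it. The part of these cell types in the Hox values was not tested.

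The targeted gene Mbtps1 read 162, 149, 131 and 152 in the controls and 115, 107 and 154 in knockouts 1 to 3 (log2 fold change -0.23, limma adjusted p = 0.807), so knockout 3 lay within the control range.

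Promoter sequence was available from RefSeq (GRCm38.p6) for 21 of the 37 members, as 23 windows of 250 bases before to 50 bases after a start. These windows held a median of 15 CpG dinucleotides, against 7 over all 32851 windows. Because the deleted protease releases ATF6 and SREBP, their binding letters were searched on both strands. The ATF6 letters TGACGTGG were in 1 Hox window, that of Hoxa11, and in 0.676% of all windows. The SREBP letters TCACNCCAC were in 1 Hox window, that of Hoxa9, and in 1.24% of all. The related letters TGACGTCA were in none of the Hox windows and in 1.79% of all. The general promoter letters CCAAT were in 14 of 23 Hox windows (60.9%, against 37.4% of all) and TATAAA in 3 of 23 (against 13.6% of all). No searched motif overlapped a different one in the windows printed here, but in Hoxd13 TATAAA occurs on both strands in overlapping letters. A match describes letters and not a bound site. The window of Hoxd13 is shown because it had the smallest limma p of the members past the filter. That of one start of Hoxa10 is shown because Hoxa10 had the smallest limma p without a filter. The window of the other Hoxa10 start held none of the searched letters and is not shown. Those of Hoxa9 and Hoxa11 are shown for these matches. Each is 5′ to 3′ on the gene's strand with the matched letters in capitals.
Hoxd13 promoter, chr2:74667975-74668274, + strand: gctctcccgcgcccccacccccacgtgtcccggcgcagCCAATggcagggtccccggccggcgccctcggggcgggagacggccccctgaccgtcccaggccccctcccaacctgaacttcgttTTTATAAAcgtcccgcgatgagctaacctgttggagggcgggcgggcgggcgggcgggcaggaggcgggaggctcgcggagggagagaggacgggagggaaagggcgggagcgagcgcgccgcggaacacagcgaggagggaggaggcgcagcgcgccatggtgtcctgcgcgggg
Hoxa10 promoter, chr6:52234890-52235189, - strand: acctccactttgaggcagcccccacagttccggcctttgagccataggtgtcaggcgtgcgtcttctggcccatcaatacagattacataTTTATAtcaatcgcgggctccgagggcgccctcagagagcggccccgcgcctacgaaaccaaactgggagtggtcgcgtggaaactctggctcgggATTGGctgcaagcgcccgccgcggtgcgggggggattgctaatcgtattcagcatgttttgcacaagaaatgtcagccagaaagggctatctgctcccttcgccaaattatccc
Hoxa9 promoter, chr6:52227321-52227620, - strand: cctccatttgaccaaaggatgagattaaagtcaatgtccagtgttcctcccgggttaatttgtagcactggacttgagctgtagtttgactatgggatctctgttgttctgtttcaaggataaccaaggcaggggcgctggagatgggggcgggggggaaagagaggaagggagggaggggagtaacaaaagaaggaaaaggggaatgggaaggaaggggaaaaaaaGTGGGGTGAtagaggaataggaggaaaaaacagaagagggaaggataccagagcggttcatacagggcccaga
Hoxa11 promoter, chr6:52245761-52246060, - strand: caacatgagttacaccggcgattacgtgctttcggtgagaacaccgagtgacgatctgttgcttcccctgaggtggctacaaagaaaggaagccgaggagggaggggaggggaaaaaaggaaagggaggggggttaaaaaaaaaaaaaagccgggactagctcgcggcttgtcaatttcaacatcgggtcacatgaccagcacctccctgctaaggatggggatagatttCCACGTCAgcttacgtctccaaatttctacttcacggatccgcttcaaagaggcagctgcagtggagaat
In the Hoxd13 window the capitals are CCAAT and the overlapping pair of TATAAA matches, and in the Hoxa10 window TATAAA and CCAAT, both on the opposite strand. The capitals of the Hoxa9 and Hoxa11 windows are also the motifs' opposite strand. Hoxa9 (log2 fold change -0.19) and Hoxa11 (-0.07), whose windows hold the SREBP and ATF6 letters, did not pass the test.

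The clusters also encode microRNAs of the miR-10 and miR-196 families, which target Hox messages, and miR-615 inside HoxC. Their mature sequences from RefSeq (GRCm38.p6) are shown with the seed, bases 2 to 8, in capitals, because the seed groups them into families.
mmu-miR-10a-5p: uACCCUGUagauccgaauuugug
mmu-miR-10b-5p: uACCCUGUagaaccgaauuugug
mmu-miR-196a-5p: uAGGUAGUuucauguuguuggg
mmu-miR-196b-5p: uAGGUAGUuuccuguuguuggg
mmu-miR-615-3p: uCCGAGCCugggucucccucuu
The miR-10 pair shares the seed ACCCUGU and the miR-196 pair the seed AGGUAGU. An array probe set for a miRNA gene can read the precursor or the host transcript rather than the mature form. Mir196b, between Hoxa9 and Hoxa10, read 89.5, 83.5, 92.1 and 111 in the controls and 85.4, 108 and 104 in the knockouts. Mir615, in HoxC, read 94.9, 72.0, 65.0 and 124 in the controls and 123, 104 and 119.9 in the knockouts. Its knockouts lay within the upper part of the control range (log2 fold change 0.36, SE 0.17, limma adjusted p = 0.787). Mir10a, Mir10b, Mir196a-1 and Mir196a-2 were under the filter on every array. Of 16 noncoding genes of the clusters listed, 10 were named by a probe set and only these 2 passed the filter. Hottip, transcribed beside Hoxa13, read 39.7 to 83.2 in controls and 68.3 to 86.1 in knockouts, and Haglr, a noncoding gene of HoxD, 8.08 to 27.6 and 25.1 to 29.4.

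Most genes beside the clusters passed the filter. Of 18 neighbours named, 15 passed the filter, 11 with log2 fold changes above 0 and 4 below, and none was at an unadjusted p under 0.05. Of all filtered genes 67.7% were above 0 and 6.48% were at that p. Evx1, the homeobox gene beyond Hoxa13, read 247, 223, 202 and 339 in the controls and 382, 282 and 309 in the knockouts (log2 fold change 0.35, SE 0.18, limma adjusted p = 0.790). Control 4 overlapped the knockouts. Snx10, another neighbour of HoxA, had a log2 fold change of -0.19.

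Hox proteins bind DNA together with the PBX, MEIS and PKNOX cofactors. Of 8 cofactors named, 7 passed the filter, 6 with fold changes above 0 and 1 below, and none was at an unadjusted p under 0.05, where 67.7% of all filtered genes were above 0 and 6.48% were at that p. Pbx4 read 93.2, 107, 103 and 116 in the controls and 122, 121 and 119 in the knockouts. Its groups did not overlap (log2 fold change 0.18, SE 0.11, limma adjusted p = 0.818). Pknox2 had a log2 fold change of 0.23 and Meis1, a partner of Hoxa9 in blood progenitors, one of 0.08. Polycomb and Trithorax proteins keep Hox genes off and on. From a list of chromatin genes that holds these and others such as Ctcf, 23 were measured. Their median log2 fold change was 0.12, with 17 above 0 and 6 below. Over all filtered genes the median was 0.07 and 67.7% were above 0. Only Cbx2, a Polycomb subunit, was at an unadjusted p under 0.05, 1 of 23 against 6.48% of all filtered genes. Cbx2 read 199, 191, 186 and 226 in the controls and 236, 255 and 248 in the knockouts (log2 fold change 0.28, SE 0.12, limma adjusted p = 0.766), and the groups did not overlap. Nor did they in Ring1 (knockout higher, log2 fold change 0.13) and Bmi1 (knockout lower, -0.12), where 7.98% of all filtered genes had no overlap. Pcgf2, another Polycomb subunit, had a log2 fold change of -0.28 (limma adjusted p = 0.801).

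Other limb patterning genes are the setting in which Hox genes act. All 24 listed were named and 12 passed the filter, of which 1 was higher and 4 lower at an unadjusted p under 0.05, with a median log2 fold change of -0.07. Over all filtered genes 3.78% were higher and 2.71% lower at that p, and the median was 0.07. Lmx1b, which sets the dorsal side of the limb, read 128, 135, 95.8 and 151 in the controls and 216, 163 and 188 in the knockouts. Every knockout lay above every control (log2 fold change 0.52, SE 0.15, limma adjusted p = 0.622). Irx5, also on the osteocyte list, read 169.5, 121, 139 and 246 in the controls and 64.8, 99.9 and 75.8 in the knockouts, with no overlap (-0.91, SE 0.20, limma adjusted p = 0.562). Prrx1 (-0.53), a limb mesenchyme factor, Dlx5 (-0.61), an osteoblast factor, and Irx3 (-0.38) were the other 3. Of the limb identity genes, Tbx5 of the forelimb (28.7 to 55.1) and Pitx1 of the hindlimb (52.5 to 74.1) stayed under the filter on average. Tbx4 of the hindlimb lay above the olfactory mark on average and read 110.0 to 148 in controls and 133 to 144 in knockouts. Which limb each array's bone came from cannot be read from these values.

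Cdx genes act upstream of Hox genes in the embryo. Of the 6 Cdx and ParaHox genes, Cdx1 and Gsx1 passed the filter. Cdx1 read 185, 147, 149 and 193 in the controls and 246, 208 and 231 in the knockouts, with no overlap (log2 fold change 0.41, SE 0.14, limma adjusted p = 0.652). Gsx1 had a log2 fold change of 0.12.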

How the data were processed

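Total RNA (30 ng) from each of 7 samples was labelled with a NuGEN kit, per the labels' protocols. The authors deposited linear probe set intensity values. Per the submitters' processing notes the tools were Affymetrix Expression Console 1.4 and PLIER. Their settings, the scaling between arrays and the build: not given in the sources used here. Array medians ran from 87.3 to 108.

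Of 35556 probe sets, 21789 name 1 gene in the platform annotation (1621 several, 12146 none here). All 37 Hox symbols matched RefSeq by Entrez identifier. Genes were represented by their highest-mean probe set. Intensities were analysed as log2(intensity + 16), with no further normalization, which understates changes of low genes. Genes under the 30th percentile were left out, leaving 13956. The contrast of knockout minus control was fitted with limma 3.58.1 under R 4.3.3, with a mean-variance trend, and p-values were adjusted over all genes tested by Benjamini-Hochberg at 0.05. Exact permutation tests were two-sided over the 35 splits of the arrays, with a smallest possible p of 0.0286. The number of arrays limits the precision, and samples are separate mice by the design text, with no label of shared litters.

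Values per array are given for the 12 members with the highest mean, those at an unadjusted p under 0.05 or without overlap (filled to 6 by smallest p), and the 3 with the widest control spread; from each related list, the 2 genes with the smallest p, with further members named where their role is needed. The Hox members and all lists were chosen with earlier results of these data known. The fit was tested on simulated data. Alternatives were other filters, offsets, scalings and variance models, array weights, a replicate block, the mean of probe sets and leaving out each array. Leaving out controls 3 and 4 together, centring on olfactory receptor genes, and fits of Hoxa10, Hoxc13 and Hoxc9 without a filter under each alternative were added after seeing the data.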

Additional observations from a re-analysis of the deposited data

Results flagged for a closer look

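Hoxa11 on control 4 was the only value of the 37 Hox genes that stood apart from its group by Dixon's test over the 4 controls. It read 133, against 74.2 in the next highest control, with a gap of 0.982 of the group's range, past Dixon's 95% limit. Chance flags about 1 in 20 groups. Control 4 was the highest array in all 10 HoxA genes.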

How the results depend on the processing

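The count of Hox genes at an unadjusted limma p under 0.05 (1 of 16) was 3 without a filter, 2 with array weights, 2 without controls 3 and 4, 0 after centring on olfactory receptor genes, and 0 to 4 when 1 array was left out. Over all genes the count of 905 was 1876 with array weights, 1506 without controls 3 and 4, 284 after olfactory centring, and 325 (without knockout 1) to 1826 (without control 4) with 1 array left out. The adjusted count of 0 was 1 after median centring and with robust variances, 5 with array weights, 2 without controls 3 and 4, and 0 to 6 with 1 array left out. Of the calls over all genes 58.2% were higher in knockout, against 48% after quantile normalization, 34.2% after median centring, 2.82% after olfactory centring and 73% without control 4. Olfactory centring moved the median log2 fold change of all filtered genes from 0.07 to -0.07. Of the 16 Hox genes past the filter, 6 passed a 50th percentile filter and 5 the olfactory mark.

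Among small fold changes, Hoxb3 turned below 0 after median centring (-0.017) and olfactory centring (-0.10), and ran from -0.060 to 0.13 with 1 array left out, below 0 without control 2, control 3 or knockout 3. Hoxa11 turned above 0 with array weights (0.076) and without controls 3 and 4 (0.12), and ran from -0.19 to 0.11 with 1 array left out. Hoxa5 did so with array weights (0.023) and without controls 3 and 4 (0.085), and ran from -0.18 to 0.059. Hoxa7 did so with array weights (0.0066) and without controls 3 and 4 (0.055), and ran from -0.17 to 0.019. Hoxc6 ran from -0.27 to 0.011. These 4 genes were above 0 without control 4. Hoxb1 turned below 0 after olfactory centring (-0.066) and ran from -0.030 (without control 3) to 0.14, and Hoxa6 turned after olfactory centring (-0.038). The cause was not tested.

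The labels do not say that replicate numbers pair the samples, and the main fit used no pairing. Correlations of deviations between arrays of the same number were 0.068, 0.15 and -0.53. No knockout correlated best with the control of its number. Deviations also carry shifts of whole arrays, so these values cannot show whether samples shared a litter or a batch. With the replicate number as a block, control 4 had a level of its own and so no part in the fold change. This gave 3 Hox genes at an unadjusted limma p under 0.05 (Hoxa4, Hoxd3 and Hoxd13, all higher). It gave 1660 genes in all at that p and 62 after adjustment. Log2 fold changes were above 0 for Hoxa11 (0.11), Hoxa5 (0.059), Hoxa7 (0.019) and Hoxc6 (0.011).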
